A study of Homo sapiens with 3 samples.

Results

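A set of 10 genes that report signalling through the kinase ERK was examined in T47D cells in which the long noncoding RNA ERINA had been knocked down. The set was defined by gene symbol: DUSP4, DUSP5, DUSP6, SPRY1, SPRY2, SPRY4, SPRED1, SPRED2, ETV4 and ETV5. All 10 were found once each among the 58039 genes listed. T47D is an established breast cancer cell line that expresses the estrogen receptor. The series holds 3 RNA sequencing libraries. One comes from cells with an ERINA hairpin called shRNA1, one from cells with a hairpin called shRNA2, and one from control cells, whose description names a control hairpin while the shRNA label says None. Lentiviral delivery and puromycin selection of stable cells are given for all of them. The knockdown group thus has 2 libraries with a different hairpin each, the control has 1 library, and nothing says that any was a repeat culture. Fewer cells of a kind and less RNA per cell cannot be told apart in such bulk samples.

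ERK is the last kinase of the RAS-RAF-MEK-ERK cascade, which carries signals of growth factor receptors to the nucleus. Active ERK induces a small set of genes that act back on the cascade: dual specificity phosphatases (DUSP) remove the activating phosphates from ERK, while Sprouty (SPRY) and Sprouty-related (SPRED) proteins act near RAS and RAF. It also induces the ETS transcription factors ETV4 and ETV5, in part by relieving repression by CIC, a DNA-binding repressor that ERK signalling inactivates. The transcript levels of these genes are widely used as readouts of pathway activity, including in breast cancer cells.

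ERINA is listed as LINC00992, the symbol to which RefSeq assigns ERINA as a synonym. It stood at 5.21 FPKM (a level per length of transcript and per mapped fragments) with shRNA1 and 8.91 FPKM with shRNA2, against 63.4 FPKM in the control. The depth estimated from genes with a single fragment was 33400000 fragments with shRNA1, 34000000 with shRNA2 and 32700000 in the control. All 8 luminal epithelial markers were at 16.5 FPKM or more in each library. Summed basal markers were at 2.14, 2.57 and 2.35 FPKM with shRNA1, shRNA2 and in the control, and summed fibroblast markers at 3.98, 4.36 and 6.04 FPKM, with COL3A1 at 0 throughout. Summed immune markers reached at most 0.323 FPKM and endothelial markers at most 0.0437 FPKM, with CD3E at 0 in every library.

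All 10 genes were expressed at low levels. The highest level of any of them in any library was 4.52 FPKM. With both hairpins 7 of the 10 were lower than in the control, 1 was higher, and 2 lay on either side of it. The genes that were lower by at least 1.5-fold with both hairpins on the log2(FPKM + 0.5) scale were ETV4, ETV5, SPRY4, DUSP6 and DUSP4. SPRY1 was the gene that was higher with both. SPRED1 and SPRED2 were lower by less, and DUSP5 and SPRY2 stayed near the control level.

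The test covered the 13112 genes with a mean of at least 1 FPKM, and 7 of the 10 reached that level. The filter left out ETV4, ETV5 and SPRY4, whose values are therefore given without a test. Limma was fitted over all 13112 genes with Benjamini-Hochberg adjustment and called 0.0839% of them higher and 0.267% lower in knockdown. None of the 7 genes passed (0 of 7), while 3 had an unadjusted p under 0.05, as did 29.7% of all genes tested. ERINA, the target of the hairpins, did not pass either, at a log2 change of -3.12 and a limma adjusted p of 0.0816. A gene that did not pass was therefore not shown to be unchanged. Of the 7 tested, 4 were lower with both hairpins, against 42.6% of all genes tested, and 1 was higher with both, against 42.4%. A decrease of at least 1.5-fold with both hairpins was seen in 2 of the 7, against 5.99% of genes tested. An increase of that size with both was seen in 0 of the 7, against 4.38%. DUSP6, among the 2 with a decrease, had a mean of 0.869 FPKM over the hairpin libraries. That is under the filter, which DUSP6 passed only through its control value of 2.86 FPKM. Every count of tested genes that includes DUSP6 carries this limit. The median log2 change of the 7 was -0.22, against 0.00053 for all genes tested.

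**Figure D1:**
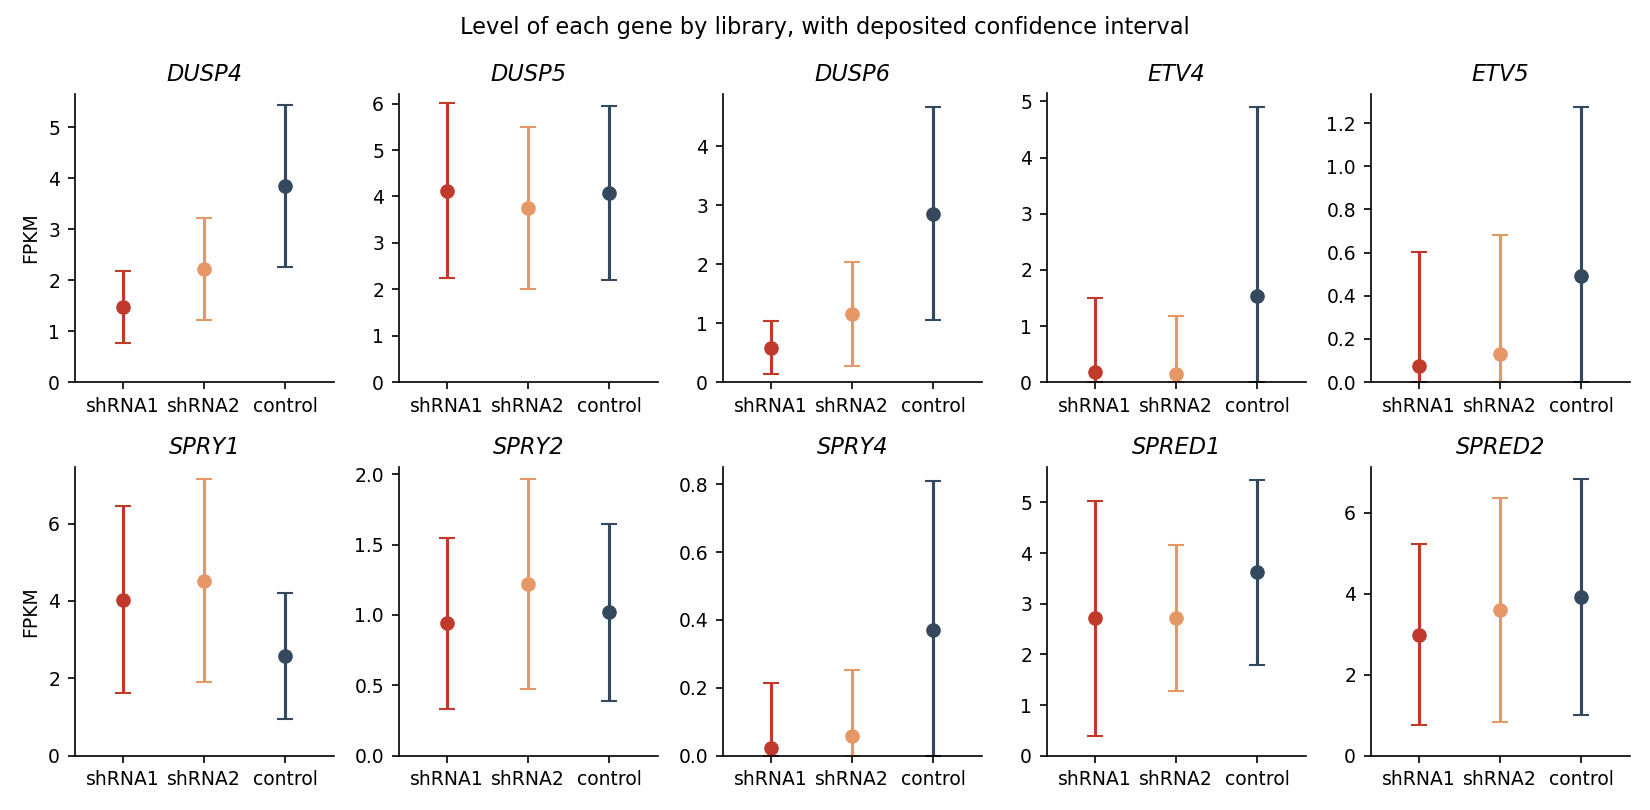
FPKM (vertical axes, each with its own scale from 0) of the 10 genes in the libraries of shRNA1, shRNA2 and the control; points are deposited values and bars the deposited confidence intervals, of a level not stated. ETV4, ETV5, SPRY4, DUSP6 and DUSP4 lie lower with both hairpins, SPRY1 lies higher, and the intervals are wide at these levels.

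ETV4 and ETV5, the ETS transcription factors induced by ERK, were the output genes of the set. ETV4 (chromosome 17, 43527844 to 43579620, minus strand of GRCh38) was at 0.186 FPKM with shRNA1 and 0.151 FPKM with shRNA2, against 1.54 FPKM in the control. Both knockdown values lay far below the control value and close to each other, 8.29-fold lower with shRNA1 and 10.2-fold lower with shRNA2 as ratios of FPKM. The deposited intervals all began at 0 and reached 1.496 FPKM with shRNA1, 1.17 FPKM with shRNA2 and 4.90 FPKM in the control, so they overlapped. ETV4 overlaps DHX8, an RNA helicase gene on the opposite strand, which was at 29.1, 30.8 and 31.3 FPKM with shRNA1, shRNA2 and in the control. Whether reads were assigned by strand is not given in the sources used here, so the division of reads between ETV4 and DHX8 is uncertain.

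ETV5 (chromosome 3, 186046308 to 186110318, minus strand) was at 0.0739 FPKM with shRNA1 and 0.130 FPKM with shRNA2, against 0.490 FPKM in the control. It was thus 6.64-fold and 3.77-fold lower with shRNA1 and shRNA2, and the 3 intervals again began at 0 and overlapped. Over its longest annotated transcript, of 4111 nt, these levels correspond to an estimated 10.2 and 18.2 fragments with shRNA1 and shRNA2, against 66.0 in the control. For ETV4 the same estimate gave 15.1 and 12.4 fragments, against 122 in the control. ETV1, the third member of their subfamily, was also below the filter, at 0.480 and 0.384 FPKM with shRNA1 and shRNA2, against 1.25 FPKM in the control.

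DUSP6 and DUSP4, phosphatases that inactivate ERK in the cytoplasm and in the nucleus, were the tested genes with the lowest values relative to control. DUSP6 (chromosome 12, 89347232 to 89353271, minus strand) was at 0.581 FPKM with shRNA1 and 1.16 FPKM with shRNA2, against 2.86 FPKM in the control. The deposited intervals were 0.132 to 1.03 FPKM for shRNA1, 0.279 to 2.03 FPKM for shRNA2 and 1.05 to 4.67 FPKM for the control. Both hairpin libraries were below the control, and shRNA1 lay lower than shRNA2. The level was 4.92-fold lower with shRNA1 and 2.47-fold lower with shRNA2. The log2 change was -1.33 (SE 0.33), with a limma adjusted p of 0.110 over all genes (0.0232 to 0.309 over the alternatives). Of all genes tested, 0.908% had a lower log2 change than DUSP6.

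DUSP4 (chromosome 8, 29333064 to 29350668, minus strand) was at 1.47 FPKM with shRNA1 and 2.22 FPKM with shRNA2, against 3.85 FPKM in the control. Its intervals were 0.773 to 2.18 FPKM for shRNA1, 1.22 to 3.23 FPKM for shRNA2 and 2.27 to 5.43 FPKM for the control. It showed the same order of libraries as DUSP6, with shRNA1 lowest. The decrease was 2.61-fold with shRNA1 and 1.73-fold with shRNA2, a log2 change of -0.91 (SE 0.26) with a limma adjusted p of 0.129 (0.0389 to 0.333 over the alternatives). The deposited interval of shRNA1 lay below that of the control for DUSP6 and DUSP4, 2 of the 7 tested genes, against 0.671% of tested genes with complete status. With both hairpins the intervals lay below the control for 0 of 7, against 0.221% of those genes, and above it for 0 of 7, against 0.0839%.

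DUSP5, a nuclear phosphatase that also acts on ERK, differed from its relatives. It was at 4.13 FPKM with shRNA1 and 3.75 FPKM with shRNA2, against 4.07 FPKM in the control. The values lay on either side of the control, and the log2 change was -0.04 (SE 0.15; limma adjusted p of 0.860, and 0.712 to 0.975 over the alternatives). DUSP5 lies on chromosome 10 (110497838 to 110511544, plus strand). It was the most abundant of the 10 genes in the control and with shRNA1.

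The Sprouty genes split 3 ways. SPRY4 (chromosome 5, 142310427 to 142326455, minus strand) was at 0.0235 FPKM with shRNA1 and 0.0576 FPKM with shRNA2, against 0.370 FPKM in the control. Both were far below the control, 15.7-fold with shRNA1 and 6.43-fold with shRNA2. Over the longest transcript, of 5349 nt, that is an estimated 4.21 and 10.5 fragments with shRNA1 and shRNA2, against 64.8 in the control, so the ratio with shRNA1 rests on very few fragments. The deposited intervals began at 0 in all libraries. Together, ETV4, ETV5 and SPRY4 were 3 of 3 genes below the filter that were at least 1.5-fold lower with both hairpins, against 5.3% of genes with a mean of 0.1 to 1 FPKM. That comparison range was chosen after their values were seen.

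SPRY1 went the other way. Its level was 4.03 FPKM with shRNA1 and 4.52 FPKM with shRNA2, against 2.58 FPKM in the control. The intervals were 1.61 to 6.46 FPKM for shRNA1, 1.89 to 7.15 FPKM for shRNA2 and 0.939 to 4.22 FPKM for the control. Both libraries were above the control, 1.57-fold with shRNA1 and 1.75-fold with shRNA2, with overlapping intervals. The log2 change was 0.63 (SE 0.16), with a limma adjusted p of 0.110 (0.0440 to 0.252 over the alternatives), and 5.46% of all genes tested had a higher one. SPRY1 lies on chromosome 4 (123396795 to 123403760, plus strand).

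SPRY2 (chromosome 13, 80335976 to 80340951, minus strand) was at 0.940 FPKM with shRNA1 and 1.22 FPKM with shRNA2, against 1.02 FPKM in the control. The hairpin libraries lay on either side of the control, with a log2 change of 0.05 (SE 0.23; limma adjusted p of 0.895, and 0.838 to 0.999 over the alternatives). At a mean of 1.06 FPKM it was the gene nearest above the filter, and ETV4, at a mean of 0.625 FPKM, was the nearest below it.

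SPRED1 and SPRED2 bring the RAS inactivator neurofibromin to the membrane. SPRED1 (chromosome 15, 38252326 to 38357249, plus strand) was at 2.71 FPKM with each hairpin, against 3.62 FPKM in the control. The log2 change was -0.36 (SE 0.15), with a limma adjusted p of 0.212 (0.153 to 0.278 over the alternatives). SPRED2 (chromosome 2, 65310851 to 65432637, minus strand) was at 2.99 and 3.60 FPKM with shRNA1 and shRNA2, against 3.91 FPKM in the control. Its log2 change was -0.22 (SE 0.18), with a limma adjusted p of 0.446 (0.392 to 0.572 over the alternatives). Both were lower with both hairpins, and all of their intervals overlapped those of the control.

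**Figure D2:**
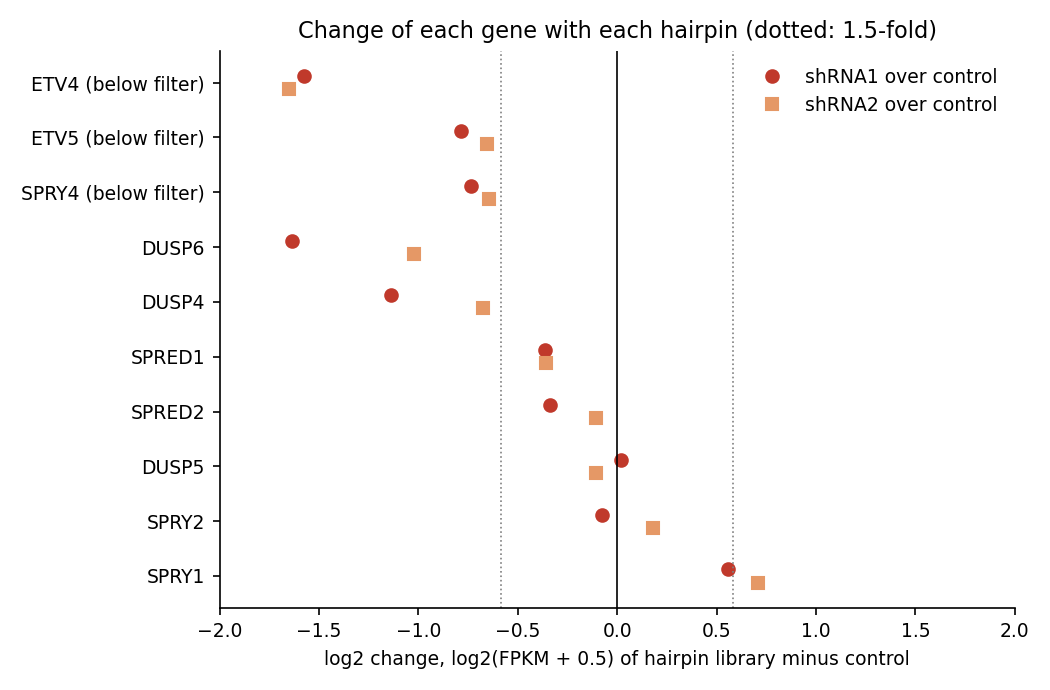
Change of each gene with shRNA1 (circles) and shRNA2 (squares) relative to the control library, as the difference of log2(FPKM + 0.5); dotted lines mark 1.5-fold. ETV4, ETV5, SPRY4, DUSP6 and DUSP4 lie beyond the line on the lower side with both hairpins, and SPRY1 lies on the higher side, beyond the line with shRNA2.

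Of the 7 genes lower with both hairpins, 6 were lower with shRNA1 than with shRNA2, and ETV4 was lower with shRNA2. SPRED1 counts among the 6 but was nearly level (2.71 FPKM with each). Of all tested genes lower with both, 70.8% were lower with shRNA1 than with shRNA2 by the same rule, and ERINA itself was too. The 7 include ETV4, ETV5 and SPRY4, which are not among the tested genes. The difference between hairpins (shRNA1 minus shRNA2, log2) was -0.62 for DUSP6 and -0.46 for DUSP4. It was smaller in size for the other 8, from -0.26 for SPRY2 to 0.12 for DUSP5. With 1 library per hairpin these differences were not tested.

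The order of levels among the 10 genes also differed between libraries. SPRY1 held rank 1 with shRNA2 and rank 2 with shRNA1, against rank 6 in the control. DUSP4 was at rank 5 with each hairpin and DUSP6 at rank 7, against ranks 3 and 5 in the control. SPRY4 was the lowest in each library. The intervals of neighbours in the order overlapped in 9 of 9 pairs in each library, so no neighbouring genes could be separated by level.

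With protein-coding genes tested alone, limma gave the calls that the fit over all genes did not. DUSP6 (adjusted p of 0.0232) and DUSP4 (0.0389) fell, and SPRY1 (0.0440) rose, by Benjamini-Hochberg adjusted limma over 11546 genes. The other 4 tested genes did not pass. In that fit 11.3% of genes were called lower and 7.11% higher, so 2 of 7 lower and 1 of 7 higher stand against a broad background of calls. The control has no repeat library, so any state of that single library enters all of these differences.

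Promoter sequence was available from RefSeq (GRCh38.p14) for 6 of the 10 genes, in 10 windows of 250 bases before to 50 bases after a start site. ETV4, ETV5, DUSP4 and DUSP5 had no entry. The windows were searched on both strands for the octamers bound by CIC (TGAATGAA, TGAATGGA, TCAATGAA and TCAATGGA), the AP-1 site TGAGTCA, the cyclic AMP response element TGACGTCA and the ETS core CCGGAA, none of which contains another. Every match found in these windows is shown. A link between these words and the changes in level was not tested. Capitals mark the match, and each stretch reads 5′ to 3′ on the strand of its gene.

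DUSP6, chr12:89352507-89352536, minus strand: cggagaatgtaTCCATTGAgacgctcgctg
DUSP6, chr12:89352482-89352511, minus strand: cgctgtttgtaTCCATTGAggagctgcctc
SPRY1, chr4:123398308-123398337, plus strand: gccctccgcagCCGGAAgggggccgcgggg
SPRY2, chr13:80341250-80341279, minus strand: ccctgcctcctCCGGAAaggcgagggcgca
SPRED2, chr2:65366766-65366795, minus strand: taaccctcggaTGACTCAtccggtacaatg

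DUSP6 was the single gene whose window held a CIC octamer, in 1 of the 10 windows, and it held 2 copies of TCAATGGA on the strand opposite to the gene, which read TCCATTGA on the strand of the gene. The matches start at -24 and 2, counted from 1 at the RefSeq start site with no 0, which leaves their starts 25 bases apart. A longer annotated transcript of DUSP6 covers both stretches with its exon. At least 1 CIC octamer occurred in 3.77% of all 35116 promoter windows and 2 or more in 0.327%. The ETS core was found in 2 of the 10 windows, close to the 17.2% of all windows. It stood once in SPRY1, at -67 from a start site, and once in SPRY2, at -142 from one. The SPRY1 stretch also lies in an annotated exon of that gene. One SPRED2 window held the AP-1 site, against 4.95% of all windows, and the cyclic AMP response element was in 0 of the 10, against 1.85%. SPRY4 and SPRED1 held none of these words in their windows. A match describes the letters in the window and says nothing of binding in these cells.

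Other genes of the pathway were read in lists set by role. These lists, like the set itself, were chosen with earlier results of these data known. For comparison, 42.6% of all genes tested were lower and 42.4% higher with both hairpins. An unadjusted limma p under 0.05 was found for 29.7% of all genes tested. With protein-coding genes tested alone, limma called 11.3% of those genes lower and 7.11% higher. No gene of any of the lists passed limma over all genes in either direction, with Benjamini-Hochberg adjusted p of 0.0813 to 0.727 among the tested genes named here. Of 14 tested receptors and ligands upstream of RAS, 7 were lower and 5 higher with both hairpins (median log2 change -0.02), and 9 had an unadjusted p under 0.05. Among the EGF receptor ligands, AREG, TGFA and HBEGF were lower with both hairpins, at log2 changes of -1.10, -1.31 and -0.85. EGF lay slightly above the control with both, at 3.75 and 3.96 FPKM with shRNA1 and shRNA2, against 3.39 FPKM. The log2 change of EGF was 0.16 (SE 0.15), with a limma adjusted p of 0.492 over all genes. Its deposited intervals overlapped that of the control, so a rise of EGF was not shown. Below the filter, BTC was at 0.435 and 0.462 FPKM, against 0.333, and EREG at 0.453 and 0.630 FPKM, against 0.502. AREG (amphiregulin) was at 72.2 and 86.6 FPKM with shRNA1 and shRNA2, against 170 FPKM in the control, TGFA at 3.77 and 4.80, against 11.3, and HBEGF at 0.817 and 0.985, against 2.03. HBEGF passed the filter only through its control value. The receptor FGFR3 was at 4.32 and 4.48 FPKM with shRNA1 and shRNA2, against 11.1 FPKM in the control. When limma was run on protein-coding genes only, 6 of the 14 were called lower, AREG, TGFA, HBEGF and FGFR3 among them, and 2 higher. EGF, BTC and EREG were named after their values were seen.

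Of the 21 tested genes of the RAS-RAF-MEK-ERK cascade, 14 were lower and 5 higher with both hairpins (median -0.13). The shares over all genes tested were 42.6% and 42.4%. An unadjusted limma p under 0.05 was found for 6 of the 21, close to the 29.7% of all genes tested. NRAS, a RAS GTPase, was at 5.89 and 7.83 FPKM with shRNA1 and shRNA2, against 18.8 FPKM in the control. Its deposited intervals with both hairpins lay below that of the control. MAP2K1, which encodes MEK1, was at 18.1 and 20.5 FPKM, against 28.1 in the control. MAPK3, which encodes ERK1, was at 49.1 and 50.5 FPKM, against 48.2 in the control. MKNK1, a kinase activated by ERK, was at 5.42 and 8.46 FPKM, against 10.4. With protein-coding genes tested alone, limma called 4 genes of this list lower, NRAS and MAP2K1 among them, and 0 higher. The shares over all protein-coding genes tested were 11.3% and 7.11%.

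**Figure D3:**
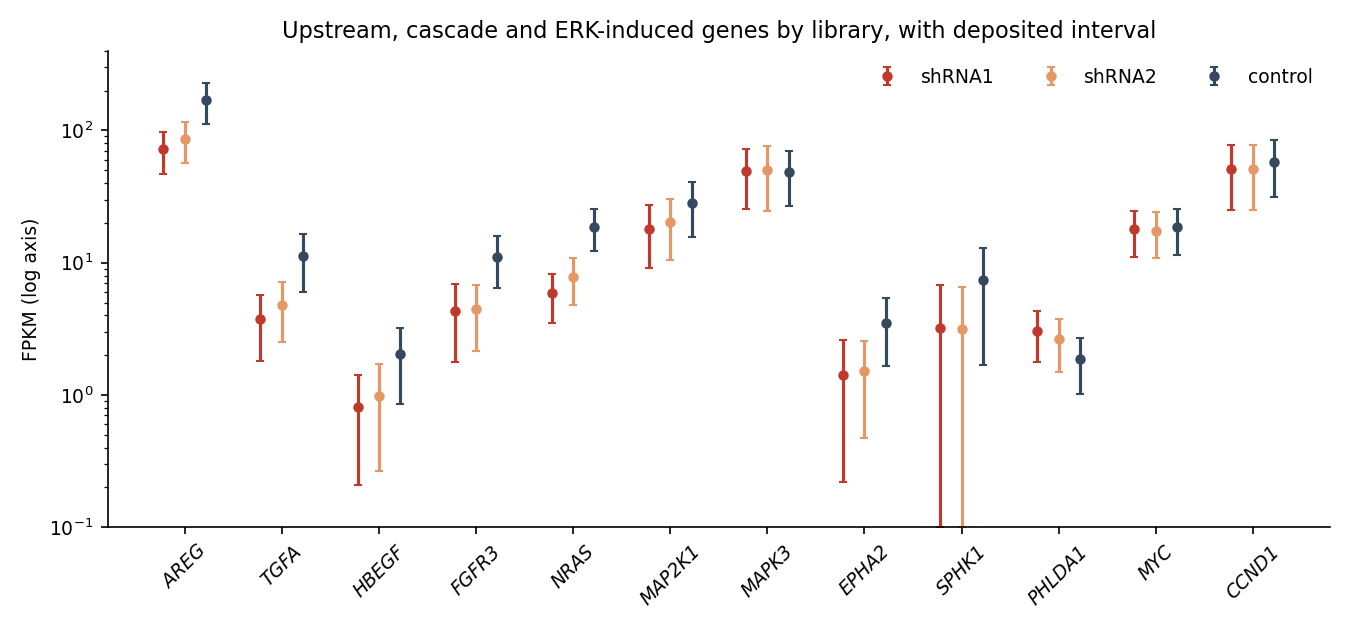
FPKM on a log axis of upstream, cascade and ERK-induced genes in the libraries of shRNA1, shRNA2 and the control, with deposited confidence intervals, cut off at the lower end of the axis. AREG, TGFA, HBEGF, FGFR3, NRAS, EPHA2 and SPHK1 lie lower with both hairpins, whereas MAPK3, MYC and CCND1 lie close to the control.

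Genes induced by ERK outside the set were mixed and mostly lower. Of 18 tested, 13 were lower and 2 higher with both hairpins (median -0.22), against 42.6% and 42.4% of all genes tested. An unadjusted limma p under 0.05 was found for 7 of the 18, against 29.7%. EPHA2, an ephrin receptor, was at 1.42 and 1.51 FPKM with shRNA1 and shRNA2, against 3.51 FPKM in the control. SPHK1, a sphingosine kinase, was at 3.20 and 3.15 FPKM, against 7.35. The membrane protein gene EMP1 was the other way, at 2.45 and 2.56 FPKM, against 1.35 in the control, and so was PHLDA1, at 3.05 and 2.64 FPKM, against 1.86. The cyclin CCND1 was at 51.5 FPKM with each hairpin, against 57.7 FPKM in the control, and MYC at 17.9 and 17.4 FPKM, against 18.5. The immediate early genes EGR1 and FOSL1 were nearly silent, with EGR1 at 0.0284 and 0.0742 FPKM, against 0.0772 in the control, and FOSL1 at 0.0293 and 0 FPKM, against 0.242. Protein-coding genes tested alone by limma gave 5 lower and 1 higher call, against 11.3% and 7.11% of all such genes. HBEGF and DUSP1 stand in a second list as well.

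On the log2(FPKM + 0.5) scale, no tested gene among the remaining phosphatases (0 of 8) and negative regulators (0 of 13) reached 1.5-fold with both hairpins. As plain ratios of FPKM, SH2B3 was 1.77-fold lower with shRNA1 and 1.72-fold lower with shRNA2. Of 8 tested genes of the other DUSP family, 5 were lower and 2 higher with both hairpins (median -0.15). The shares over all genes tested were 42.6% and 42.4%. An unadjusted limma p under 0.05 was found for 1 of the 8, against 29.7% of all genes tested. DUSP1, which inactivates several MAP kinases, was at 4.80 and 4.24 FPKM with shRNA1 and shRNA2, against 6.41 FPKM in the control. DUSP10, a phosphatase of p38 and JNK, was at 1.68 and 2.13 FPKM, against 2.88, DUSP2 at 1.17 and 1.38, against 1.78, and DUSP14 at 42.1 and 42.1, against 49.4. Of 13 other negative regulators of RAS and ERK tested, 5 were lower and 7 higher with both hairpins. An unadjusted limma p under 0.05 was found for 2 of the 13, against the same 29.7%. The median of these 13 was 0.05, and -0.02 once all libraries were brought to equal total FPKM. LRIG1, which promotes degradation of ERBB receptors, was at 25.4 and 21.9 FPKM with shRNA1 and shRNA2, against 17.5 FPKM in the control. RASA2, a RAS GTPase-activating protein, was at 5.81 and 5.45 FPKM, against 4.46 in the control, whereas RASAL2 was at 3.59 and 4.29, against 5.65, and the adaptor SH2B3 at 0.856 and 0.882, against 1.51. SH2B3 passed the filter only through its control value. SPRY3 and SPRED3, the remaining members of their families, were below the filter, SPRY3 at 0.0697 and 0.0589 FPKM, against 0.0905, and SPRED3 at 0.232 and 0.126 FPKM, against 0.170. Also below the filter, and named after their values were seen, were DUSP9 and IL17RD. DUSP9, a phosphatase of ERK, was at 0.450 and 0.468 FPKM with shRNA1 and shRNA2, against 1.29 FPKM in the control, 2.86-fold and 2.75-fold lower. IL17RD, an inhibitor of FGF signalling, was at 0.621 and 0.596 FPKM, against 1.09, 1.76-fold and 1.83-fold lower. In limma on protein-coding genes alone, 0 genes of either list were called, against 11.3% lower and 7.11% higher over all such genes.

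Among ETS factors and CIC, 5 of 16 tested genes were lower and 9 higher with both hairpins. The shares over all genes tested were 42.6% and 42.4%. An unadjusted limma p under 0.05 was found for 4 of the 16, against 29.7% of all genes tested. The median of these 16 was 0.06, and -0.02 at equal total FPKM. CIC was at 3.58 and 4.22 FPKM with shRNA1 and shRNA2, against 5.39 FPKM in the control, and its partner ATXN1 at 3.05 and 4.07 FPKM, against 6.55. ETS2 was at 1.70 and 1.68 FPKM, against 2.55, whereas SPDEF, an ETS factor of luminal cells, was at 116 and 93.9 FPKM, against 78.4. Limma on protein-coding genes alone called 1 of these genes lower, ATXN1, and 1 higher, against 11.3% and 7.11% of all such genes.

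Proliferation markers were lower in the knockdown libraries as well. All 10 tested were lower with both hairpins (median -0.73), against 42.6% of all genes tested. The list of markers was also chosen with earlier results of these data known. Of these markers, 0 passed limma over all genes, and 10 had an unadjusted limma p under 0.05, against 29.7%. With protein-coding genes tested alone, 10 passed limma as lower, against 11.3% of all such genes. PLK1 was at 11.6 and 17.2 FPKM with shRNA1 and shRNA2, against 37.1 FPKM in the control, AURKB at 13.8 and 16.8, against 34.4, CDK1 at 80.3 and 101, against 172, and TOP2A at 67.4 and 90.1, against 144. The part of proliferation in the levels of the ERK readouts was not tested.

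**Figure D4:**
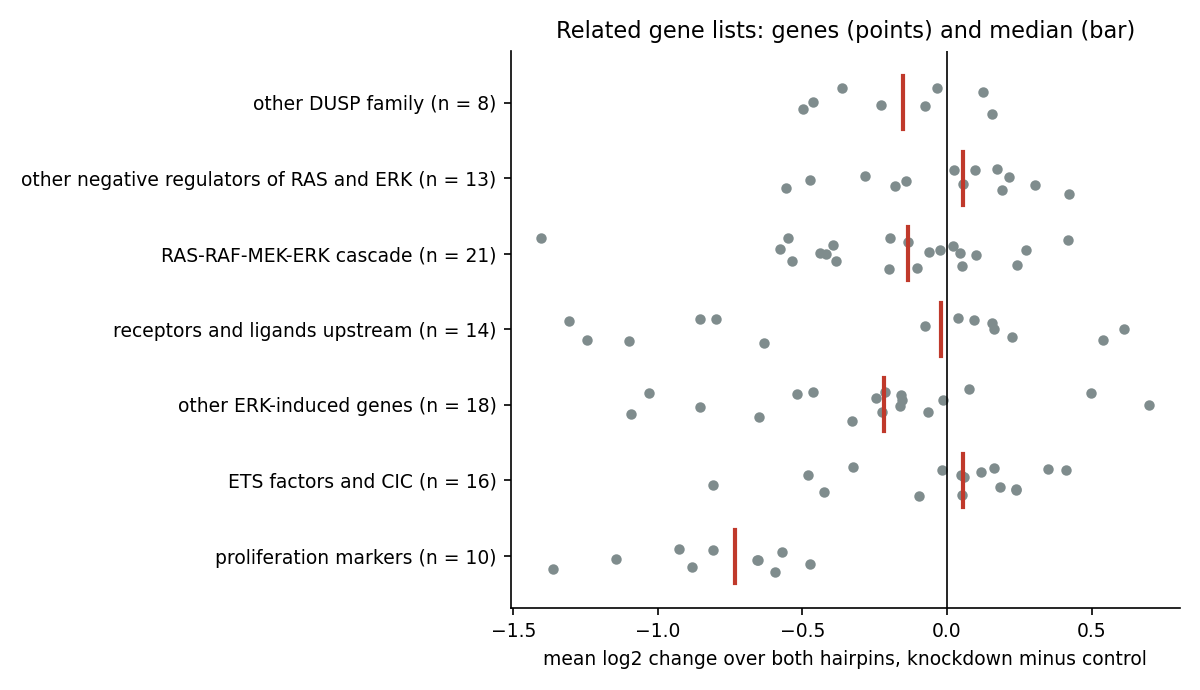
Mean log2 change over both hairpins of each tested gene (points) in 7 related lists, with the list median (bar). Proliferation markers all lie below 0, while the other lists spread to both sides of it.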

How the data were processed

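RNA was sequenced from T47D cells with ERINA hairpin shRNA1 or shRNA2 (group of 2) and from control cells (group of 1). The authors deposited FPKM per gene and library with lower and upper confidence bounds of a level not stated, and a status, per the file headers. Per the submitters' processing notes, the tools STAR and RSEM and the build GRCh38 are listed, without versions or roles. How genes were annotated and filtered, and whether libraries were scaled to each other, is not given in the sources used here. All 10 genes had the status OK in every library.

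Gene types, coordinates and transcript lengths came from GENCODE release 29 (GRCh38), which held 57435 of 58039 gene identifiers. Depth was estimated as the median of 10⁹ over FPKM times length, for genes with 1 transcript of at least 2000 nt at the lowest step of that product. Scaling by the authors would shift it.

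Changes were taken on log2(FPKM + 0.5), which understates changes of low genes. Counts of genes at least 1.5-fold apart use that scale, while folds of single genes are plain ratios of FPKM. The test was limma 3.58.1 (R 4.3.3; lmFit, eBayes with trend) on all genes with a mean of at least 1 FPKM, Benjamini-Hochberg adjusted at 0.05, with 1 residual degree of freedom. The p-values rest on the spread between the hairpin libraries, which eBayes moderates toward a trend over all genes in the fit. SPRED1, at 2.71 FPKM with each hairpin, thus still had an SE of 0.15. The control is assumed to vary like the hairpin libraries. The script was tested on simulated data. Python 3.11.15 made tables and plots. Alternatives changed the pseudocount, filter, scaling, eBayes options, gene set and hairpins used. The members and lists were chosen with earlier results of these data known. Of each list, up to 4 tested genes with the largest change in the same direction with both hairpins were named, besides preset key genes; 1 of these is not reported here.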

Additional observations from a re-analysis of the deposited data

How the results depend on the processing

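The count of 0 genes of the set past limma held under pseudocounts of 1 and 0.1, both scalings, eBayes without trend or with its robust option, and no filter (0 of 10), and became 3 with protein-coding genes tested alone. Calls over all genes were 46, against 0 with no filter, 176 with the same total FPKM, 1025 with the robust option and 2120 among protein-coding genes; with no filter 5039 genes had an unadjusted p under 0.05. Of these, 11 higher and 35 lower became 65 and 111 with the same total, where the median log2 change over all genes was -0.12 for shRNA1 and -0.03 for shRNA2. With no filter, 7 of 10 genes were lower with both hairpins and 5 were 1.5-fold or more apart, in place of 4 and 2 of 7. The 2, counted in either direction, became 3 of 7 with a pseudocount of 0.1 and with libraries scaled to the same upper quartile. The added gene was SPRY1, which was higher, so the count of 0 increases did not hold at these settings. A mean of at least 5 FPKM left none of the set to count. Without 1 hairpin library, 5 of 7 genes were lower and 2 higher in each case, and 2 to 3 were at least 1.5-fold apart; DUSP5 was at -0.105 to 0.017 and SPRY2 at -0.077 to 0.181 (log2), each changing sign without shRNA2, and the cause was not tested. In all, 74 of 79 values for single genes kept direction and, where both fits gave an adjusted p, side of the threshold. Values without 1 hairpin library carry no p-value, and ETV4, ETV5 and SPRY4 have none in the main fit. Only direction could be compared there. No paired analysis was possible because the groups share fewer than 2 replicate numbers. Depth limits ETV4, ETV5 and SPRY4 most, and their changes rest on few fragments in the hairpin libraries.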
